A study of Mus musculus with 6 samples.

Results

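The loci of CTCF and cohesin genes comprised 10 listed autosomal genes, out of 20665 autosomal protein-coding genes placed on the map. The list held Ctcf and its paralogue Ctcfl, the cohesin subunit genes Smc3, Rad21 and Stag1, the loader gene Nipbl, the release and regulator genes Wapl, Pds5a and Pds5b, and the acetyltransferase gene Esco1. Each gene was placed in the 50 kb bin that holds its lower genome coordinate (mm10), and contacts and insulation were read within 1 Mb of that bin. The genes were chosen for what their products do and not for their contact values, though earlier results of these data were known by then. Hi-C measures how often pairs of genome segments are close enough to be ligated in crosslinked nuclei. It gives no level of RNA or protein, so the values below describe the folding of the chromosome around each gene and not its activity.

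There were 6 Hi-C libraries from mouse embryonic stem cells of strain 129. In 3 of them (Del8) the genotype label was GFP-CTCF-Del8, a CTCF protein that lacks zinc finger 8. The other 3 (WT) were labelled wild type. The series' design text describes the comparison line as expressing GFP-CTCF, and the labels leave unsaid if the WT cells had that tag. The labels do not say how the lines were made, whether each is 1 clone, or whether the altered protein is encoded at the Ctcf locus itself. A deletion of 1 zinc finger cannot be seen in contact counts of 50 kb bins, so the genotype could not be checked, nor could the stem cell label be checked against marker genes.

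CTCF is a DNA-binding protein with a row of zinc fingers that read its motif. Cohesin is a ring built on SMC proteins with a kleisin subunit (RAD21) and a STAG subunit. It extrudes chromatin loops and is halted by CTCF bound in a given orientation, which gives rise to loops and to the boundaries of topologically associating domains. NIPBL loads cohesin and drives its motion, WAPL with the PDS5 proteins releases it, and ESCO1 acetylates SMC3, which protects the ring from release. CTCFL, also called BORIS, shares the zinc finger region of CTCF and is known mainly from male germ cells.

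Promoter sequence in RefSeq (GRCm38.p6) was found for 6 of the 10 genes, Ctcf, Smc3, Stag1, Wapl, Pds5a and Pds5b. A core of the CTCF motif, AGNGGGCGC on either strand, was searched in windows from 250 bases before to 50 bases after the start. It was present in 945 of 32851 promoters (2.88%) and in 1 of these 6, that of Pds5b. Shown here are 3 promoters up to the lower coordinate of the gene, all on the + strand: Ctcf at chr8:105636288-105636473, because it is the gene of the altered protein, Smc3 at chr19:53600146-53600395, because its bin is a domain boundary that deepened in Del8, and Pds5b at chr5:150673577-150673712, because it holds the motif. Capitals mark the motif match at chr5:150673698-150673706.
Ctcf: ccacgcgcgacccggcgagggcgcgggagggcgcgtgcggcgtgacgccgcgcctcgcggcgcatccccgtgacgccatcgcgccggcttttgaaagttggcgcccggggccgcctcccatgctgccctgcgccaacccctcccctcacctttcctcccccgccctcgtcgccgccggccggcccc
Smc3: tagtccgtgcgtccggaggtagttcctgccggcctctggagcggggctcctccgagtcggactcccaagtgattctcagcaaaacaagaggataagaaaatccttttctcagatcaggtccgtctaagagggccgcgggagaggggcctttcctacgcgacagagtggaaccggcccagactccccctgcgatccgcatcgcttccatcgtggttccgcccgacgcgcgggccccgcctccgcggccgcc
Pds5b: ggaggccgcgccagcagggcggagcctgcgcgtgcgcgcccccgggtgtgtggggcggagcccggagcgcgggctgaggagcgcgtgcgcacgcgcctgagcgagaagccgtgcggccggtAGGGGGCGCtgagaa
A match is a stretch of letters and not a binding site, and a missing match says only that these letters are not in the window.

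The libraries held 66266759, 46925260 and 38088173 contacts (Del8 replicates 1 to 3), and 24038030, 24512722 and 36233407 (WT replicates 1 to 3). Every Del8 library held more contacts than every WT library, so depth and genotype cannot be told apart here. In the coverage of bins, WT replicates 1 and 2 stood apart from the other 4. In them 38.0% and 38.2% of the 47875 autosomal bins with contacts fell short of the coverage seen in the other libraries, against 0.0355%, 0.0668% and 9.38% in the Del8 libraries and 0.0752% in WT replicate 3. They also had 31.2% and 30.7% of their contacts inside a single bin, against 26.5%, 26.4% and 26.6% in the Del8 libraries and 22.3% in WT replicate 3. By this share WT replicate 3 also lay apart from the Del8 libraries, in the other direction. Only the 27783 bins covered in all 6 libraries (58.0%) were used, and results that change without WT replicates 1 and 2 are given both ways. All 10 gene bins were usable. The Ctcf bin was the most deeply covered, with 5418, 3708 and 3237 contacts in Del8 and 2495, 2546 and 3155 in WT, and the Esco1 bin held 826 to 1922. Chromosome 8, which carries Ctcf, was covered 1.25, 1.25 and 1.27 times as deeply per usable bin as the autosomes together in Del8, and 1.33, 1.32 and 1.28 times in WT. The chromosomes of the other members lay between 0.847 and 1.08 in every library. The part of this coverage in the values at Ctcf was not tested.

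Insulation at the gene bins was compared first. The insulation score takes the mean of the balanced contacts in a square of 500 kb that spans a bin, over the mean of its chromosome, as a log2, so a low score means that few contacts cross the bin. Of the 9 members with a score, 2 were higher in Del8 (Ctcf and Ctcfl) and 3 were lower (Smc3, Pds5a and Esco1), in a limma fit over 21982 bins called at an adjusted p under 0.05. Over all bins, 32.5% were higher and 30.7% were lower, 63.2% in all. The members were thus called about as often as any bin, and their median absolute difference was 0.07 against 0.11 over all bins (log2 score). The median signed difference was -0.0093 for the members and 0.0012 over all bins. Del8 and WT libraries did not overlap at the same 5 genes and overlapped at the other 4, where 67.2% of all bins did not overlap. When each library was also centred on its median over all bins, 1 member was higher and 4 were lower. Without balancing 3 were higher and 3 were lower. With a looser screen that let nearly empty bins into the map, limma called 0 of 36012 bins, with 4579 at an unadjusted p under 0.05, so no call on insulation in the text holds under that screen.

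**Figure D1:**
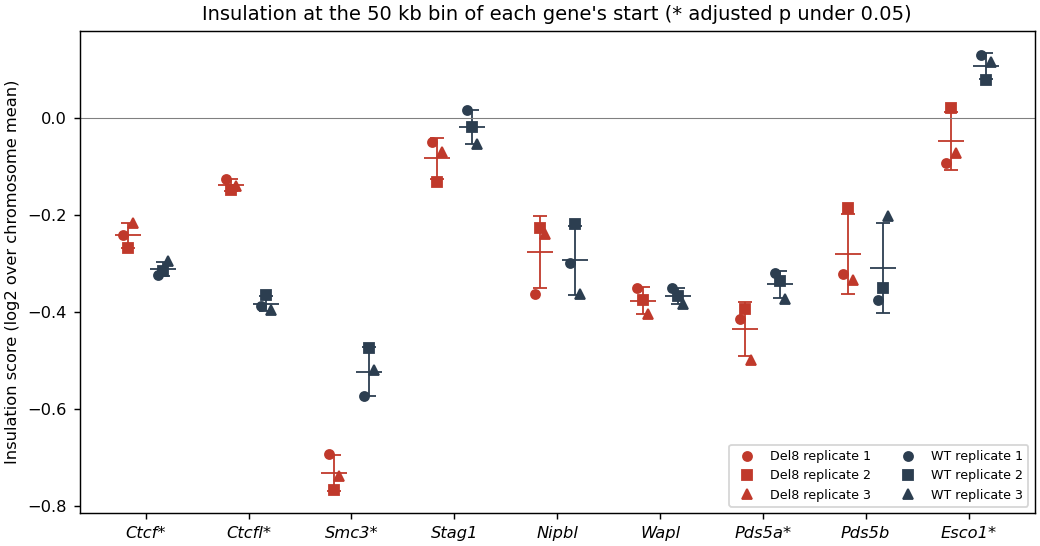
Insulation score (log2 over the chromosome mean) at the 50 kb bin of each gene, with 1 point per library, Del8 in red left of WT in blue, and bars for the mean and SD of 3 libraries. The Del8 points of Ctcfl lie above all its WT points and those of Smc3 lie below, while the points of Nipbl, Wapl and Pds5b are mixed. Rad21 had no score.

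The order of the genes by mean score in Del8 was Esco1, Stag1, Ctcfl, Ctcf, Nipbl, Pds5b, Wapl, Pds5a and Smc3, in which Esco1 was the highest, at -0.05, and Smc3 the lowest, at -0.73. Between neighbours in this order, the Del8 libraries were apart only for Ctcfl over Ctcf, Pds5b over Wapl and Pds5a over Smc3. Ctcfl changed place: it lay above Ctcf in every Del8 library (means of -0.14 and -0.24) and below Ctcf in every WT library (means of -0.38 and -0.31). In both groups Smc3 had the lowest mean score, at -0.73 in Del8 and -0.52 in WT.

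Ctcf itself (chr8:105636474-105682922) lies in a gene-dense stretch, with the starts of 70 protein-coding genes within 1 Mb, against 7 to 24 around the other members. Its bin scored -0.24, -0.27 and -0.22 in Del8, and -0.32, -0.32 and -0.30 in WT. All Del8 libraries were above all WT libraries, but the difference was small, at 0.07 (SE 0.03, limma adjusted p = 0.0471). The call was lost when any 1 library other than WT replicate 3 was left out (adjusted p between 0.0512 and 0.161), without WT replicates 1 and 2 (0.248), and with each library centred on its median (0.137), and with a 250 kb square the sign turned (-0.02, adjusted p = 0.700). Without balancing the difference was larger, at 0.18 (SE 0.04, adjusted p = 0.00342).

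The flanks of Ctcf differed more than its own bin. Of the 41 scored bins within 1 Mb, 25 were higher in Del8 (61.0%) and 1 was lower (2.44%), against 32.5% and 30.7% of all bins. Most of these bins were thus crossed by more contacts in Del8, relative to the mean of the chromosome. Neighbouring bins share most of their squares, so these are not independent values. The deepest boundary of the region, 350 kb below Ctcf, holds the starts of B3gnt9, Tradd, Fbxl8, Hsf4, Nol3, Exoc3l and E2f4 among others and was not called, with means of -1.36 ± 0.022 in Del8 and -1.40 ± 0.018 in WT (SD, n = 3 each). The boundary 550 kb above Ctcf, with the starts of Pla2g15 and Slc7a6, was shallower in Del8, with a score of -0.20 ± 0.012, against -0.50 ± 0.051 in WT (SD, n = 3 each), a difference of 0.30 (limma adjusted p = 1.17e-05). The bin 1000 kb below Ctcf, with the starts of Cdh16, Rrad and Ciao2b, changed most. It scored 0.00, -0.02 and -0.04 in Del8, against -0.48, -0.55 and -0.41 in WT, a difference of 0.46 (SE 0.04, adjusted p = 1.65e-06).

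Seen from the Ctcf bin, contact over that expected for the chromosome and distance was 1.84, 1.64 and 1.74 in Del8 and 1.54, 1.57 and 1.56 in WT at 250 to 500 kb. At 50 to 200 kb it was 1.41, 1.40 and 1.40 in Del8 and 1.44, 1.50 and 1.51 in WT. Contact over expected, here and below, comes from raw counts without balancing, so its level also holds the coverage of the gene's bin. The scaled coverage of the Ctcf bin was 1.93 to 2.09 over the libraries, and that of the Pds5a bin 0.64 to 0.75. The groups did not overlap in either band, with Del8 above WT in the farther band and below it in the nearer. The share over the genome was taken from usable bins with at least as many usable as unusable partner bins in the band. Of these, Del8 lay wholly above WT in 9.59% at 50 to 200 kb, 16.6% at 250 to 500 kb and 18.2% at 550 kb to 1 Mb, and wholly below it in 10.2%, 16.2% and 16.2%. No such filter was set for the members, and Rad21 had only 4 usable partner bins in each farther band. Over the 10 genes and 3 bands, 2 of 30 values were above and 1 was below, against 28.8% without overlap over those bins. An exact two-sided permutation test gave p = 0.10 for each, the smallest that 3 against 3 libraries allow, and 0.818 after adjustment over 30 values. None of the 25 tested pairs of the Ctcf bin with bins 50 kb to 1 Mb away was called by edgeR, and 4 had an unadjusted p under 0.05. The genes on other chromosomes whose 6 insulation scores varied most like those of Ctcf were Gmeb1 on chromosome 4 (Euclidean distance of the centred scores 0.0205 over 6 libraries), and Mobp and Rpsa, which share 1 bin on chromosome 9 with Slc25a38 (0.0218), out of 13428 genes compared.

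Ctcfl (chr2:173093609-173119525) sits on a domain boundary, and this boundary was shallower in Del8. Its bin scored -0.13, -0.15 and -0.14 in Del8, and -0.39, -0.37 and -0.40 in WT. The groups were far apart, by 0.24 (SE 0.03, limma adjusted p = 1.57e-05), which is 1.18 times as much contact across the bin in Del8. This was the largest rise among the 41 scored bins within 1 Mb. The dip of the boundary relative to the bins 250 kb to either side was -0.23, -0.24 and -0.25 in Del8, and -0.42, -0.44 and -0.42 in WT. The difference at Ctcfl was 0.24 to 0.25 whichever library was left out and stayed called each time, but under the looser screen it was 0.0081 (SE 0.16, adjusted p = 0.971).

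The rise at Ctcfl covered a run of bins from 300 kb below to 100 kb above the gene, each higher in Del8, with differences of 0.11 to 0.24. From 300 to 400 kb above, 3 bins were lower, by 0.08 to 0.13. In all, 13 of the 41 bins were higher and 10 were lower. The bin that holds the upper end of Ctcfl was also higher, by 0.24.

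At 50 to 500 kb, the Ctcfl bin had more contact with one side of the boundary and less with the other in Del8. The nearest bin on the side of higher coordinates holds the upper end of Ctcfl itself. On the side of higher coordinates, contact over expected at 50 to 200 kb was 1.31, 1.35 and 1.31 in Del8, and 0.83, 0.98 and 1.10 in WT. On the side of lower coordinates at the same distance it was 1.53, 1.55 and 1.35 in Del8, and 1.79, 1.70 and 1.83 in WT. The Ctcfl bin thus leaned strongly to its lower side in every WT library and less so in every Del8 library. At 250 to 500 kb the higher side had 1.94, 2.05 and 2.17 in Del8 and 1.48, 1.46 and 1.50 in WT, and the lower side had 1.42, 1.39 and 1.45 in Del8 and 1.59, 1.66 and 1.96 in WT. The groups did not overlap in any of these 4 values. From 550 kb to 1 Mb the groups overlapped on each side. Both sides together overlapped in every band. The split by side was added after the values over both sides had been seen.

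By side, members and other bins were both counted only with at least as many usable as unusable partner bins on that side. Across such bins, the Del8 libraries lay wholly above WT on 1 side in 11.8% at 50 to 200 kb, 19.3% at 250 to 500 kb and 19.4% at 550 kb to 1 Mb, and wholly below in 11.4%, 17.2% and 16.2%. Of the 55 values by side over the 10 genes, 10 were above, 4 were below and 41 overlapped, so 25.5% did not overlap against 31.5% over all such bins. The smallest exact p by side was 0.10, and 0.393 after adjustment over the 55 values. The members as a group therefore held no more separated values than other bins.

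**Figure D2:**
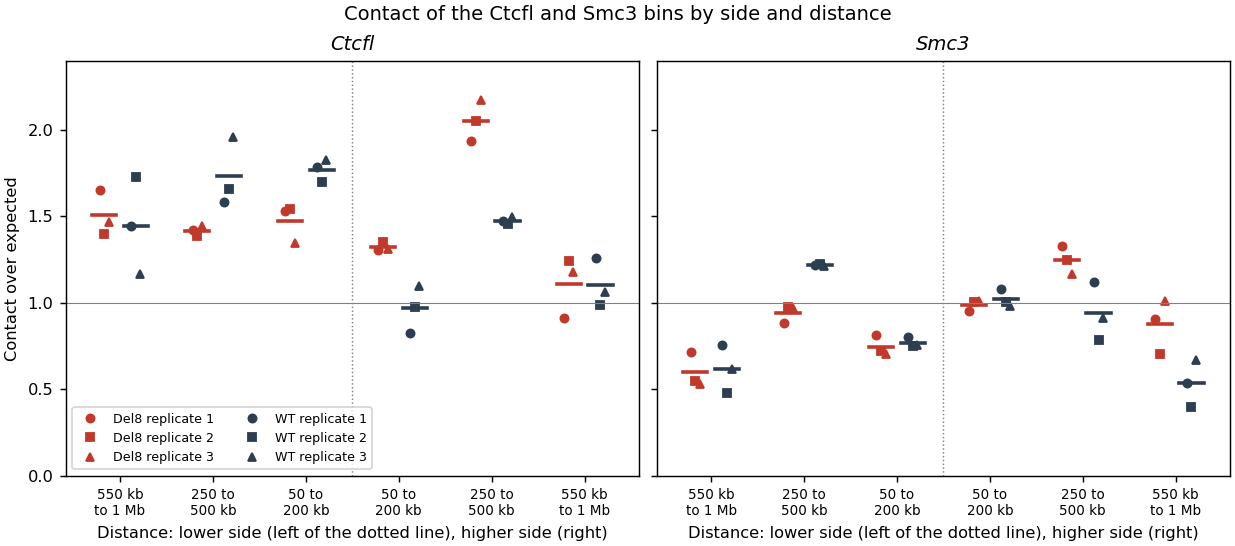
Contact over that expected for chromosome and distance of the Ctcfl and Smc3 bins in 3 distance bands on the side of lower coordinates (left of the dotted line) and of higher coordinates (right), with 1 point per library and a bar for the mean, Del8 in red left of WT in blue. For Ctcfl, Del8 is lower on the left and higher on the right at 50 to 500 kb. For Smc3, Del8 is lower on the left at 250 to 500 kb and higher on the right from 250 kb outwards. Counts are raw and not balanced.

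At the level of single bin pairs, 207 of the 400 possible pairs of the members' bins were tested, in a fit of edgeR's quasi-likelihood test over 324025 pairs. Of these 3 were higher in Del8 and 1 was lower. Over all pairs 0.933% were higher and 0.857% were lower. All 3 higher pairs belonged to Ctcfl and all reached to its side of higher coordinates. The gene itself spans the Ctcfl bin and the adjacent bin, 50 kb above, which holds its upper end. The pair of these bins had 281, 190 and 165 contacts in Del8 and 85, 77 and 107 in WT. Over expected this was 1.30, 1.27 and 1.26 in Del8, against 0.84, 0.74 and 0.96 in WT, a rise of 1.51-fold (log2 0.59, SE 0.12, adjusted p = 0.00183). The call held whichever single library was left out (adjusted p of 0.0402 or less), but not without WT replicates 1 and 2 together (log2 0.42, adjusted p = 0.284).

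Ctcfl with the bin 300 kb above had 80, 69 and 80 contacts in Del8 and 21, 24 and 31 in WT. This rose 1.85-fold over expected (log2 0.89, adjusted p = 0.0114). Ctcfl with the bin 100 kb above, which holds the start of Pck1, the gene of a key enzyme of glucose synthesis, had 184, 140 and 114 contacts in Del8 and 43, 70 and 75 in WT. This rose 1.50-fold (log2 0.59, adjusted p = 0.0139). The Del8 libraries lay above the WT libraries over expected in both pairs. The call at 300 kb was lost without Del8 replicate 3 (adjusted p = 0.142) or WT replicate 1 (0.0562), and that at 100 kb without Del8 replicate 1 (0.0506), Del8 replicate 2 (0.0830) or WT replicate 1 (0.164). DESeq2 called none of the 207 member pairs, of which 39 (18.8%) had an unadjusted p under 0.05 in edgeR, against 14.6% of all pairs. Neighbouring pairs share contacts and are not replicates.

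**Figure D3:**
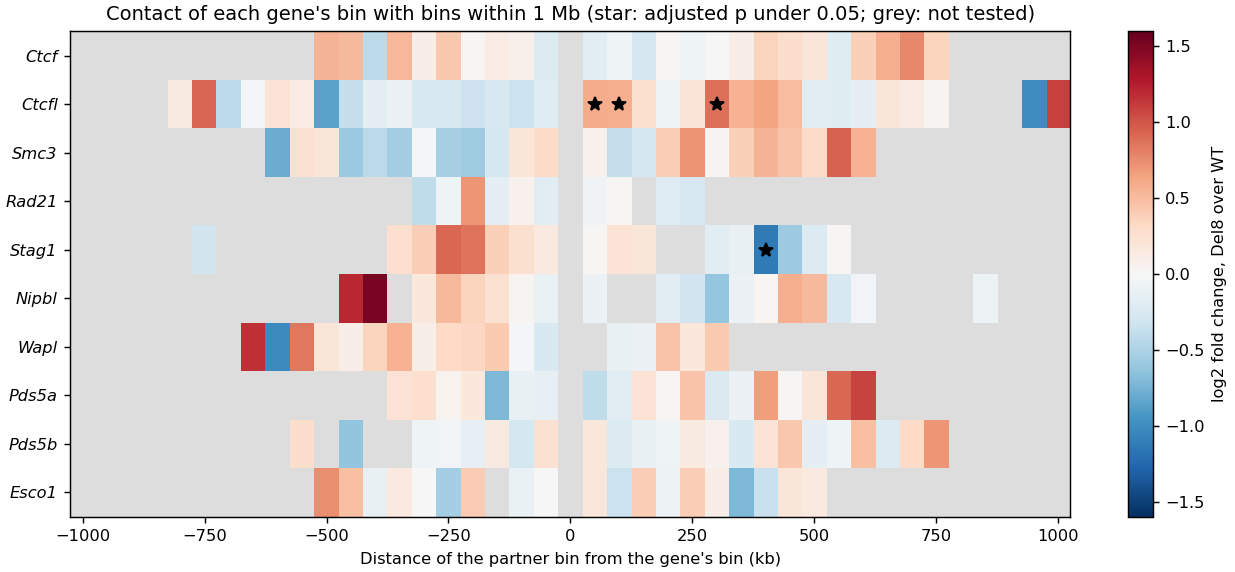
Log2 fold change (Del8 over WT) of the contact of each gene's bin with bins up to 1000 kb below or above it, 1 row per gene, with a star for an adjusted p under 0.05 and grey for pairs that were not tested. Ctcfl carries 3 stars at 50, 100 and 300 kb above the gene, all red (higher in Del8), and Stag1 carries 1 star at 400 kb, blue (lower in Del8).

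Smc3 (chr19:53600396-53645831), the gene of an SMC arm of the cohesin ring, also sits on a boundary, and this one was deeper in Del8. Its bin scored -0.69, -0.77 and -0.74 in Del8, and -0.57, -0.48 and -0.52 in WT. All 3 Del8 libraries were below the WT libraries, with a difference of -0.21 (SE 0.03, limma adjusted p = 0.000215), or 0.865 times as much contact across the bin. The dip relative to the bins 250 kb to either side was -0.42, -0.46 and -0.45 in Del8, and -0.17, -0.11 and -0.13 in WT. The bin 250 kb below is itself a boundary, and the bin 250 kb above was higher in Del8 by 0.22. The change in dip thus also holds a change of the upper flank. Without any 1 library the difference was between -0.24 and -0.19 and stayed called, and under the looser screen it was -0.37 and not called (adjusted p = 0.257).

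The deeper dip had its lowest point at the gene but was widest below it. The 5 bins from 200 kb below Smc3 to the gene's own bin were each lower in Del8, and the bins 100 and 50 kb below fell by 0.28 each. The 7 bins from 150 to 450 kb above were each higher, by up to 0.25. The 8 bins from 700 to 350 kb below were higher as well, by up to 0.47 at 600 kb, where the score was -0.23, -0.12 and -0.18 in Del8 and -0.68, -0.65 and -0.62 in WT. Farther out, from 650 kb above, scores were lower again, by up to 0.28. In all, 15 of 36 scored bins within 1 Mb were higher and 12 were lower. The boundary 250 kb below Smc3, at the start of Smndc1, did not change beyond the spread (-0.01, adjusted p = 0.764).

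In Del8 the Smc3 bin had less contact with its lower side at 250 to 500 kb and more with its higher side from 250 kb outwards. On the lower side, contact over expected at 250 to 500 kb was 0.88, 0.98 and 0.97 in Del8, and 1.22, 1.22 and 1.22 in WT. On the higher side in the same band it was 1.33, 1.25 and 1.17 in Del8, and 1.12, 0.79 and 0.91 in WT. From 550 kb to 1 Mb on the higher side it was 0.91, 0.70 and 1.01 in Del8, and 0.53, 0.40 and 0.67 in WT. The groups did not overlap in these 3 values, and they overlapped in the other 3 bands and sides. None of the 24 tested pairs of Smc3 was called by edgeR, with 8 at an unadjusted p under 0.05, 3 higher and 5 lower.

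**Figure D4:**
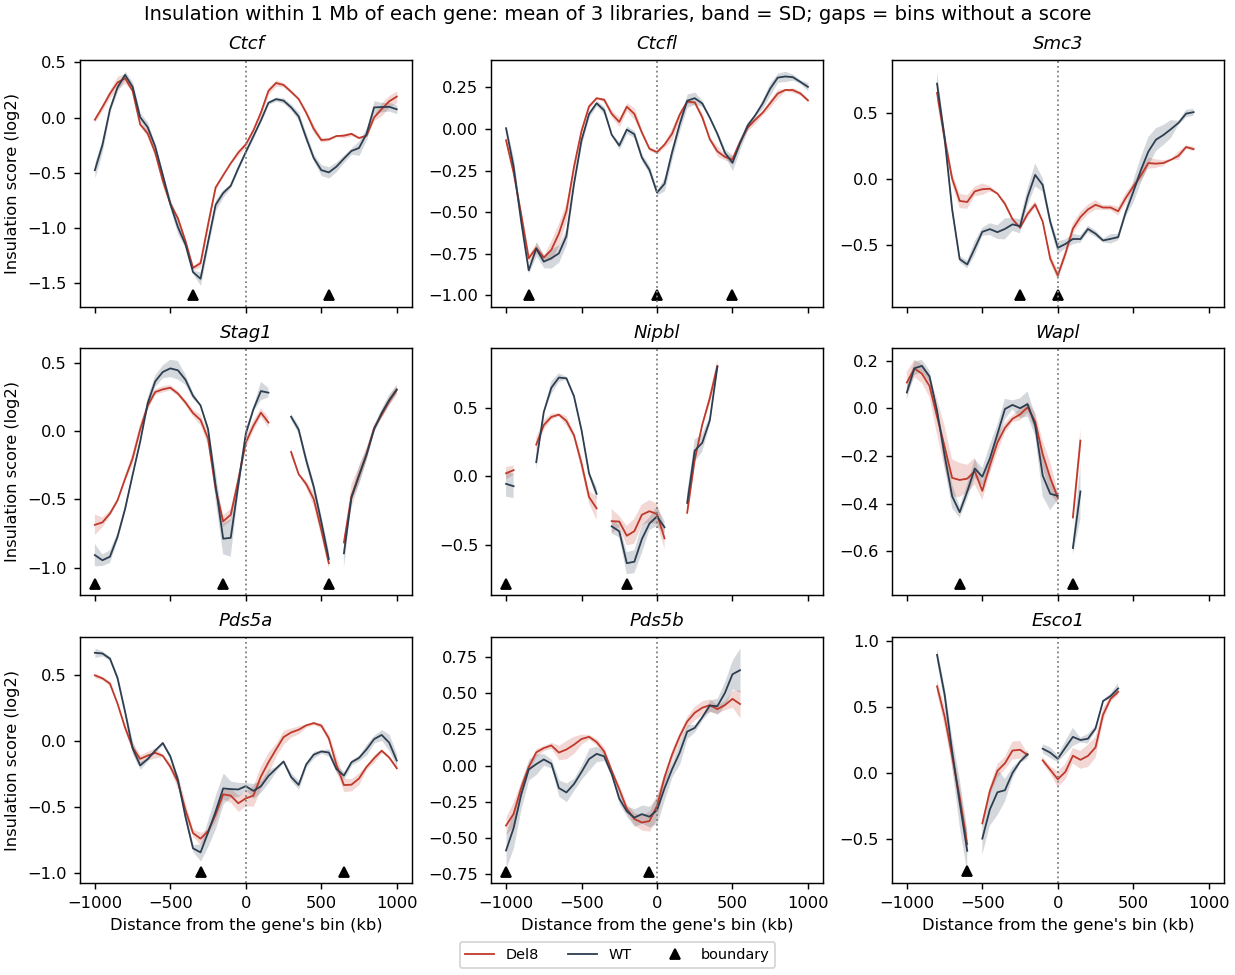
Insulation score (log2) against distance from the gene's bin (kb) for the 9 members with a score, as the mean of 3 Del8 libraries (red) and 3 WT libraries (blue) with a band of 1 SD, and triangles for boundaries. The dip at Ctcfl is shallower in Del8 and that at Smc3 is deeper. Around Smc3, Del8 is lower from 200 kb below to the gene's bin. It is higher from 700 to 350 kb below and from 150 to 450 kb above. The Del8 line of Stag1 runs below WT over the gene body.

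Rad21 (chr15:51962604-51993538), the gene of the kleisin subunit, could not be scored, because only 15 of the 40 bins within 1 Mb were usable. Its own bin held 2201, 1544 and 1245 contacts in Del8 and 959, 842 and 1206 in WT. With no scored bin within 1 Mb, boundaries could not be called there either. The starts of 7 protein-coding genes lay in that span. Contact of the Rad21 bin over expected at 50 to 200 kb was 0.65, 0.59 and 0.63 in Del8, and 0.73, 0.58 and 0.59 in WT. The groups overlapped in all 3 bands, and edgeR called none of its 10 tested pairs, with 1 at an unadjusted p under 0.05.

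Stag1 (chr9:100597709-100958544), which encodes a STAG subunit of cohesin, is the longest member, at 361 kb, and its body could be followed over several bins. The bin of its lower end scored -0.05, -0.13 and -0.07 in Del8, and 0.02, -0.02 and -0.05 in WT. The groups overlapped and the difference of -0.06 was not called (adjusted p = 0.0967). With each library centred on its median the adjusted p was 0.0376, without balancing the difference was -0.30 (0.00140), and with a 250 kb square the difference was 0.22 (0.00341), so neither the call nor the sign at this bin held across settings. The bin of the RefSeq promoter, 1 bin further into the gene, was lower by 0.12 (adjusted p = 0.00375).

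Inside the gene, 6 of the 7 scored bins were lower in Del8 and none was higher, where 30.7% of all bins were lower and 32.5% higher. The largest fall lay 350 kb above the lower end, near the 3' end of the gene, where the score was -0.31, -0.32 and -0.32 in Del8, against 0.05, -0.0049 and -0.0089 in WT. This fell by 0.33 (SE 0.03, adjusted p = 2.91e-06), and 0.860% of all bins fell by more. The bin was picked as the largest fall of the 38 scored bins within 1 Mb of Stag1, so this share does not say how unusual it is. Neighbouring bins share most of their squares, so the run along the gene is not a set of independent values.

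The called pair of Stag1 joined its 2 ends. The bin of the lower end and the bin 400 kb above, which holds the upper end of Stag1 and the start of Pccb, a mitochondrial carboxylase subunit gene, had 18, 17 and 15 contacts in Del8 and 21, 17 and 28 in WT. Relative to expected this was 0.48, 0.64 and 0.66 in Del8, and 1.36, 1.06 and 1.40 in WT. The end-to-end contact was 0.458-fold in Del8 relative to WT (log2 -1.13, SE 0.32, edgeR adjusted p = 0.0364). The call was lost without any 1 of the Del8 replicates (adjusted p of 0.202, 0.0811 and 0.0639 without replicates 1, 2 and 3), without WT replicate 1 (0.108) and without WT replicate 3 (0.141), and it held without WT replicate 2 (0.0476). No boundary of the summed map lay between the 2 bins.

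Around Stag1, 9 of 38 scored bins within 1 Mb were higher and 14 were lower. The higher bins lay mainly 1000 to 700 kb below the gene, with a rise of 0.32 at Cldn18, which encodes a tight junction protein, where the score was -0.62, -0.61 and -0.58 in Del8 and -0.97, -0.92 and -0.87 in WT.

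At Nipbl (chr15:8289824-8465315), the gene of the cohesin loader, the bin scored -0.36, -0.23 and -0.24 in Del8, and -0.30, -0.22 and -0.36 in WT. The groups were mixed and did not differ beyond their spread (0.02, adjusted p = 0.746), and none of the 3 scored bins over the gene body was called. Without balancing the difference at Nipbl was 0.13 and was called (SE 0.05, adjusted p = 0.0318). The boundary 200 kb below Nipbl was shallower in Del8, by 0.20 (adjusted p = 0.00215). On that side, contact of the Nipbl bin over expected at 250 to 500 kb was 0.59, 0.62 and 0.54 in Del8, and 0.25, 0.39 and 0.39 in WT, and at 550 kb to 1 Mb it was 0.48, 0.38 and 0.42 in Del8, and 0.29, 0.30 and 0.29 in WT. Both values were higher in every Del8 library. None of its 19 tested pairs was called by edgeR, with 3 at an unadjusted p under 0.05.

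Of the release genes, Wapl (chr14:34672379-34747983) had the smallest difference of all members. Its bin scored -0.35, -0.38 and -0.40 in Del8, and -0.35, -0.37 and -0.38 in WT, a difference of -0.0093 (adjusted p = 0.788). Within 1 Mb, 3 of 23 scored bins were higher and 1 was lower. The boundaries 650 kb below and 100 kb above Wapl were both shallower in Del8, by 0.14 (adjusted p = 0.00664) and 0.13 (0.00270). Contact of the Wapl bin over expected at 250 to 500 kb was 0.62, 0.67 and 0.57 in Del8, and 0.53, 0.52 and 0.56 in WT, with no overlap (exact permutation p = 0.10, 0.818 adjusted over 30 values).

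The PDS5 genes lie on the same chromosome, far apart. At Pds5a (chr5:65605719-65698236) the bin scored -0.41, -0.39 and -0.50 in Del8, and -0.32, -0.34 and -0.37 in WT, lower in every Del8 library, by 0.09 (SE 0.03, adjusted p = 0.0293). The call was lost without Del8 replicate 3 (0.141), WT replicate 1 (0.0818) or WT replicate 2 (0.0644), and without WT replicates 1 and 2 together (0.261). Without balancing the difference at Pds5a was -0.00089 (adjusted p = 0.992), and with a 250 kb square it was -0.14 (0.0263). Pds5a is on the minus strand, so this bin holds the end of the gene. The bin of its promoter differed by -0.04 and was not called (adjusted p = 0.469). A rise of up to 0.42 lay 350 kb above the gene's lower end, where the score was 0.09, 0.11 and 0.05 in Del8 and -0.35, -0.35 and -0.30 in WT, and in all 11 of 41 bins were higher and 15 were lower.

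At Pds5b (chr5:150673713-150810669) the bin scored -0.32, -0.19 and -0.33 in Del8, and -0.38, -0.35 and -0.20 in WT, with the libraries of both groups mixed (0.03, adjusted p = 0.624). The bin of its promoter, with the motif match printed above, is this same bin. Of the 4 scored bins over the gene body, 2 were higher, by up to 0.11. Within 1 Mb, 12 of 32 bins were higher and 2 were lower, with the largest rise 600 kb below, at 0.30 (SE 0.04). None of the 23 tested pairs of Pds5b was called by edgeR, and 0 of them had an unadjusted p under 0.05.

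Esco1 (chr18:10566507-10610863), the gene of the enzyme that acetylates SMC3 outside replication, had the highest mean score of the members in both groups, at -0.09, 0.02 and -0.07 in Del8, and 0.13, 0.08 and 0.11 in WT. It was lower in every Del8 library, by 0.16 (SE 0.03, adjusted p = 0.00198), and both bins spanned by the gene were lower. The difference was between -0.19 and -0.13 without any 1 library and stayed called, and with a 250 kb square it was -0.09 and not called (adjusted p = 0.172). Around Esco1, 4 of 23 scored bins were higher and 11 were lower. Its contact over expected overlapped between the groups in every band, and none of its 19 tested pairs was called by edgeR, with 2 at an unadjusted p under 0.05.

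Over the 9 scored neighbourhoods together, 99 of 299 bins within 1 Mb were higher in Del8 (33.1%) and 74 were lower (24.7%), against 32.5% and 30.7% of all bins. With each library centred on its median, 86 were higher and 86 were lower, against 28.8% and 35.2% of all bins, so which direction was the more frequent depends on the scaling. Without WT replicates 1 and 2, 73 were higher and 52 were lower. The neighbourhoods differed among themselves: Ctcf had 25 higher bins to 1 lower and Pds5b had 12 to 2, while Esco1 had 4 to 11 and Stag1 had 9 to 14. These differences between loci were not tested, since adjoining bins share contacts.

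The members lay within 1 Mb of 19 scored boundaries, of which 10 were higher in Del8, 1 was lower and 8 were not called. Over all 1214 boundaries 50% were higher and 16.0% were lower, 66% in all. The 1 that was lower was that at Smc3. Besides those at Ctcfl, Pla2g15, Nipbl and Wapl, the higher ones included those with the starts of Dbr1 and A4gnt, 1000 kb below Stag1 (0.22), of B3glct, 1000 kb below Pds5b (0.17), and of Klb, the gene of a coreceptor of fibroblast growth factors, 300 kb below Pds5a (0.10). The groups overlapped at B3glct, with -0.404, -0.362 and -0.482 in Del8 and -0.607, -0.699 and -0.460 in WT. They also overlapped at Klb, with -0.696, -0.790 and -0.740 in Del8 and -0.916, -0.786 and -0.838 in WT. Averaged over the 17 boundaries with both flanks scored, the dip was -0.47, -0.46 and -0.46 in Del8, and -0.58, -0.57 and -0.51 in WT. All Del8 libraries had the shallower mean dip, by 0.09 (exact permutation p = 0.10, the smallest possible), and the mean over all 1067 boundaries differed by 0.09 too. Without WT replicates 1 and 2 the difference near the members was 0.05.

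Other genes of the same machineries gave mixed directions, like the members. Of 15 further cohesin genes, 3 lie on X and were not analysed here, and 10 of the autosomal genes had a score. Of these 4 were higher in Del8, 3 were lower and 3 were not called, with a median of 0.03. Rec8, the meiotic kleisin gene, scored -0.13 ± 0.044 in Del8 and -0.44 ± 0.035 in WT, a rise of 0.30. Ddx11, the gene of a helicase that acts in sister chromatid cohesion, scored -0.75 ± 0.052 in Del8 and -0.41 ± 0.089 in WT, and fell by 0.34 (SD, n = 3 each). Pttg1, which encodes securin, was higher by 0.27, and Stag3, a meiotic STAG gene, was lower by 0.20.

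Of the genes of condensin and the SMC5/6 complex, 12 of 15 had a score, 6 were higher, 2 were lower and 4 were not called, with a median of 0.08. The largest difference was at Nsmce4a, an SMC5/6 subunit gene, at -0.34 ± 0.0077 in Del8 and -0.75 ± 0.036 in WT (0.41). Ncaph2 (0.22), Nsmce1 (0.18) and Smc4 (0.18) were higher as well. Of 10 genes of factors reported to act with CTCF, 8 had a score, 3 were higher (Yy1 by 0.17, Parp1 by 0.12 and Bptf by 0.08), 2 were lower, of which Maz by 0.08, and 3 were not called, with a median of 0.02. These shares stand beside the 32.5% and 30.7% of all bins, so none of the lists is described as set apart from other genes.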

How the data were processed

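Per the labels, nuclei were digested with MboI and ligated in situ before sequencing. The authors deposited raw contact counts, as whole numbers, for pairs of 50 kb bins on the same chromosome. Their coordinates follow mm10, per the submitters' processing notes. An aligner and read filters are not named in the labels or files. The design text calls the replicates biological, but nothing says whether the cultures were separate, so p-values measure the spread between these libraries. The members and gene lists were chosen with earlier results of these data known.

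A bin was usable if its coverage, scaled to the 75th percentile, was at least 0.5 of that of the library ranked 3 from the top and above 0.1 in every library. For the insulation score, counts were balanced by iterative correction, and bins with 50.0% or more of the square usable were scored. Contact over expected and bin pairs were taken from raw counts, without a correction for the coverage of each bin. Boundaries were the minima of the score on the summed map of the 6 libraries whose prominence was at least 0.2. Scores were fitted with limma 3.58.1 over all bins, and counts of pairs up to 1 Mb apart with a mean of 10 or more with edgeR 4.0.16 (quasi-likelihood, offsets from chromosome and distance), in R 4.3.3, both with Benjamini-Hochberg adjustment over the whole table. DESeq2 1.42.0 was an alternative. Single values per library were compared with exact permutation tests in scipy 1.17.1. The scripts were tested on simulated data. Named were all 10 members, up to 3 called pairs per member and direction with the smallest p, the 3 genes most like Ctcf, and up to 4 called genes per list with the largest difference. Other genes were named as the genes that start in a bin described. Gene positions came from RefSeq, which gives no strand for 4 members, so a gene's start is its lower coordinate. The alternatives were a 250 kb square, a looser screen of bins, no balancing, centring each library, other normalizations and filters for pairs, leaving out libraries, and a replicate block.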

Additional observations from a re-analysis of the deposited data

How the results depend on the processing

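Across the alternatives tried, the rise at Ctcfl and the fall at Smc3 were called in all but the looser screen of bins, where the difference at Ctcfl was 0.0081, against 0.24, and that at Smc3 -0.37, against -0.21. With that screen 0 members, 0 bins around them and 0 pairs were called in either direction (limma and edgeR; 4579 bins and 41373 pairs at an unadjusted p under 0.05 over the genome), 6 values of contact by distance did not overlap between the groups, against 3, and the difference in boundary dip was 0.038. Without WT replicates 1 and 2 together, 1 member was higher, 0 pairs were called higher and 0 lower, 18 values by distance did not overlap, and the difference in dip was 0.049. Leaving out each library in turn gave 1 to 2 members higher, 2 to 3 lower, 1 to 5 pairs higher, 0 to 1 lower and 5 to 7 values without overlap. Centring gave 1 member higher, balanced counts 7 values without overlap, and DESeq2 0 pairs higher and 0 lower (24601 pairs at an unadjusted p under 0.05 over the genome). Fewer libraries make separation by chance more frequent. Same-numbered libraries did not deviate together (correlations of -0.03, -0.01 and -0.07), and with the number as a replicate block 1 member was higher and 0 pairs were lower.

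Signs turned with a 250 kb square at Ctcf (-0.023), Stag1 (0.22) and Pds5b (-0.053), and with the looser screen at Pds5a (7.31), Esco1 (27.2) and Pds5b (-0.18). At genes with no call, they turned at Pds5b without balancing (-0.0077), without Del8 replicate 2 (-0.019), without WT replicate 1 (-0.0039; 0.082 at most, without WT replicate 3) and without WT replicates 1 and 2 (-0.077), at Nipbl with centring (-0.0021), without Del8 replicate 2 (-0.0077), Del8 replicate 3 (-0.0011) or WT replicate 3 (-0.017; 0.060 at most, without Del8 replicate 1) and at its upper coordinate (-0.072), and at Wapl without Del8 replicate 3 (0.0047; -0.022 at the other end, without Del8 replicate 1) or WT replicates 1 and 2 (0.0073). Under the looser screen, which let nearly empty bins into the map, 7.31 and 27.2 stood against -0.09 and -0.16 in the main fit. Such values are not read as changes at Pds5a and Esco1. The cause of the turned signs was not tested. Depth limits the pairs: 207 of 400 possible pairs of the members had usable bins and a mean count of 10 or more, and changes in the others could not be tested.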
